A study of Homo sapiens with 12 samples.

Results

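The lysosomal proteases of the cathepsin name, the macrophage-associated lysosomal glycoprotein CD68 and the lysosomal membrane glycoprotein LAMP1 were followed by RNA sequencing in MV3 cells, an established line of human melanoma. The 10 genes (CTSA, CTSB, CTSC, CTSD, CTSK, CTSL, CTSS, CTSZ, CD68 and LAMP1) were chosen by name, with earlier results of these data known. All 10 were found among the 28100 genes of the deposited counts. Wells of a 12-well plate were changed to RPMI medium with 1% serum depleted of extracellular vesicles (EVs) for 3 h, after which PBS (Ctrl) or 1e10 vesicle particles per well were added for 24 h. The vesicles came from conditioned medium of THP-1 cells, a human monocytic leukaemia line, polarized as M0, M1 or M2 macrophages during 48 h, and were isolated by ultracentrifugation. The 4 groups (Ctrl, M0 EV, M1 EV and M2 EV) had 3 libraries each. The labels name no polarizing agents and do not say whether replicates were separate cultures or vesicle preparations, so the p-values rest on a spread between libraries that may be technical only.

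Lysosomes are the acidic organelles in which proteins and lipids taken up or recycled by a cell are broken down. Cathepsins B, C, K, L, S and Z are cysteine proteases of the papain family, cathepsin D is an aspartic protease and cathepsin A is a serine carboxypeptidase. Most are made as inactive proenzymes, carried to the lysosome by mannose 6-phosphate receptors and activated there, and tumour cells can also secrete them, where several cleave matrix proteins. Cystatins inhibit the cysteine cathepsins. Transcription factors of the TFEB, TFE3 and MITF family bind E-box sequences with the core CACGTG in the promoters of many lysosomal genes.

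Promoter windows of 300 bases (250 before to 50 after the annotated start, RefSeq, GRCh38.p14) were matched for 7 of the 10 genes, CTSA, CTSC, CTSD, CTSL, CTSZ, CD68 and LAMP1. They are shown for the 6 genes whose window held a match to a searched motif, whether or not the gene was called below, and the window of CTSC held none. Capitals mark matches to a searched motif, which is CACGTG in LAMP1, CTSA and CTSD, a kappa B form (GGGA and CC with any 4 bases between) in CTSL and CTSZ and the AP-1 form TGANTCA in CD68. Each sequence runs 5′ to 3′ on the strand of its gene.
LAMP1 (chr13:113296989-113297288, plus strand): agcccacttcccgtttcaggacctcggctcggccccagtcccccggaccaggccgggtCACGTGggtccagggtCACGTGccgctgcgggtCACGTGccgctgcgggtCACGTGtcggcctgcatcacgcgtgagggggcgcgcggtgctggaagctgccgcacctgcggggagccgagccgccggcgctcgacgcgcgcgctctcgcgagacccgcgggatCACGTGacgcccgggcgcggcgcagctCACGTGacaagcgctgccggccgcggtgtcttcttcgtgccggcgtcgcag
CTSA (chr20:45891085-45891384, plus strand): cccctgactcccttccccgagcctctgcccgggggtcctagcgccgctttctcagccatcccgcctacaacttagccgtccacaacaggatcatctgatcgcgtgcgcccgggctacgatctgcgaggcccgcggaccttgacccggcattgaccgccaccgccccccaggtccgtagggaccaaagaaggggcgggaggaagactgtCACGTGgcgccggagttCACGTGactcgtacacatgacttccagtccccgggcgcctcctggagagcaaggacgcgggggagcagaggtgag
CTSD (chr11:1763878-1764177, minus strand): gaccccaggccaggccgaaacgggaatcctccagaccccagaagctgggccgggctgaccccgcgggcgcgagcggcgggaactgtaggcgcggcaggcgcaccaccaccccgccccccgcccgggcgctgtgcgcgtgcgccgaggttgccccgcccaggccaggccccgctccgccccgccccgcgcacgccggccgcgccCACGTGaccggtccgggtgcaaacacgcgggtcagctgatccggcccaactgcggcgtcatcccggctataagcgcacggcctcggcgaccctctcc
CTSL (chr9:87725869-87726168, plus strand): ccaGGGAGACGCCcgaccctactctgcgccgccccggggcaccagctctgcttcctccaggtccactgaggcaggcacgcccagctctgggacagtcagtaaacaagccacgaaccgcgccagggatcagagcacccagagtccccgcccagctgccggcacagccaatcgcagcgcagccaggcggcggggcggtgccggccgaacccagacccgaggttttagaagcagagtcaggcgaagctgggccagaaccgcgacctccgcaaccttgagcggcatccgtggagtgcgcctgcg
CTSZ (chr20:59007205-59007504, minus strand): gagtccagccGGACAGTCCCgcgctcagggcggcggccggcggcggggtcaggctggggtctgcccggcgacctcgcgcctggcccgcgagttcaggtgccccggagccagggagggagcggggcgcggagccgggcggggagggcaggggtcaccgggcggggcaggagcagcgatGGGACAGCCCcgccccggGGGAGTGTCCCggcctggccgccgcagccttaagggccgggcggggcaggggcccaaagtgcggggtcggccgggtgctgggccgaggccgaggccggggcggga
CD68 (chr17:7579388-7579687, plus strand): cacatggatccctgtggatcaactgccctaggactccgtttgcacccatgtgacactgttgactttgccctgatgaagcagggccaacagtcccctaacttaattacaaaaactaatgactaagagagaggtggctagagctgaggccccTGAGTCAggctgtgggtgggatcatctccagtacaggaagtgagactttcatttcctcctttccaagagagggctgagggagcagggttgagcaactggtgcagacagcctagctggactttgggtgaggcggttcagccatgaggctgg

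The window of LAMP1 held 6 copies of CACGTG, that of CTSA 2 and that of CTSD 1, and none was found in the windows of CTSC, CTSL, CTSZ and CD68. Among all 35116 windows of this length in the table, 7.26% held at least 1 copy and 0.664% at least 2, and LAMP1 was the only 1 with 6. The longer CLEAR form (GTCA and TGAC with any 2 bases between), which can contain CACGTG at its centre, was in none of the 7 windows and in 0.968% of all. Both flanks had to match in full. Sites that differ by 1 base, such as ATCACGTGAC in the window of LAMP1 and TTCACGTGAC in that of CTSA, were not counted. The kappa B form was found 1 time in the window of CTSL and 4 times in that of CTSZ, where 2 of the matches overlap on opposite strands (25.6% of all windows held it), and the AP-1 form in that of CD68 (7.71%). The interferon-related forms, GAAA repeated after any 2 bases (3.57%) and TTC and GAA with any 3 bases between (7.66%), were in none of the 7. Both strands were searched, and a match describes the letters in this window only.

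The 12 libraries held 9694843 to 14379738 gene counts. Levels are given in CPM, counts scaled to library size with TMM factors, as mean ± SD of 3 libraries, and a gene was called changed at a Benjamini-Hochberg adjusted p below 0.05 in edgeR's quasi-likelihood test over all 13116 tested genes. Replicates of 1 group differed by a chi-square of 1.04 to 2.34 per degree of freedom, where counting error alone gives about 1. Both values above 2 involved M0 EV replicate 1, and M0 EV replicates 2 and 3, the closest pair, still differed beyond that error (chi-square p = 0.00144). Of 14 melanoma cell markers, TYR, DCT and S100B had no count over the 12 libraries and SOX10, TYRP1, PMEL and NGFR had 2, 5, 13 and 22. S100A1, MITF and MLANA were low with 90, 104 and 135 counts. PAX3, GPNMB, AXL and VIM were present with 2331, 3949, 166161 and 679164. Part of the listed markers were thus at or near 0 and part were not. The list was not limited to markers of the melanocyte lineage, and AXL and VIM held the most counts.

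All 10 genes passed the filter on low counts. Levels of different genes were compared as CPM per kilobase of transcript. In Ctrl the order was CTSB (332.1 ± 9.4 CPM per kb, SD, n = 3), CTSZ (246.1 ± 3.6), CTSD (163.2 ± 9.1), CTSA (133.4 ± 2.0), LAMP1 (102.5 ± 3.8), CTSL (84.2 ± 1.1), CTSC (67.4 ± 2.8), CD68 (30.2 ± 2.0), CTSK (3.72 ± 0.21) and CTSS (0.196 ± 0.067). No neighbours in this order overlapped in Ctrl. In M1 EV the level of CTSL (122.4 ± 5.3 CPM per kb) passed that of LAMP1 (102.4 ± 0.87) and overlapped that of CTSA (122.4 ± 0.71). In CPM, not divided by length, the mean of CTSB over all libraries lay above that of 98.8% of tested genes, that of CTSK above 17.9% and that of CTSS above 5.55%.

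With vesicles of M1 macrophages, genes of the 10 differed from Ctrl in both directions. Against Ctrl, CTSS, CTSL and CD68 rose and CTSB, CTSD, CTSA and CTSK fell, while CTSC, CTSZ and LAMP1 did not pass the test. That is 7 of 10 genes, beside 28.1% of all tested genes in this comparison (14.3% higher, 13.7% lower). As the 10 were chosen with earlier results of these data known, this share describes them only. The median log2 fold change of the 10 was -0.023 beside 0.00077 for all tested genes. Counting groups that do not overlap instead, 9 of the 10 (all but LAMP1) were apart, beside 39.6% of all tested genes.

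**Figure D1:**
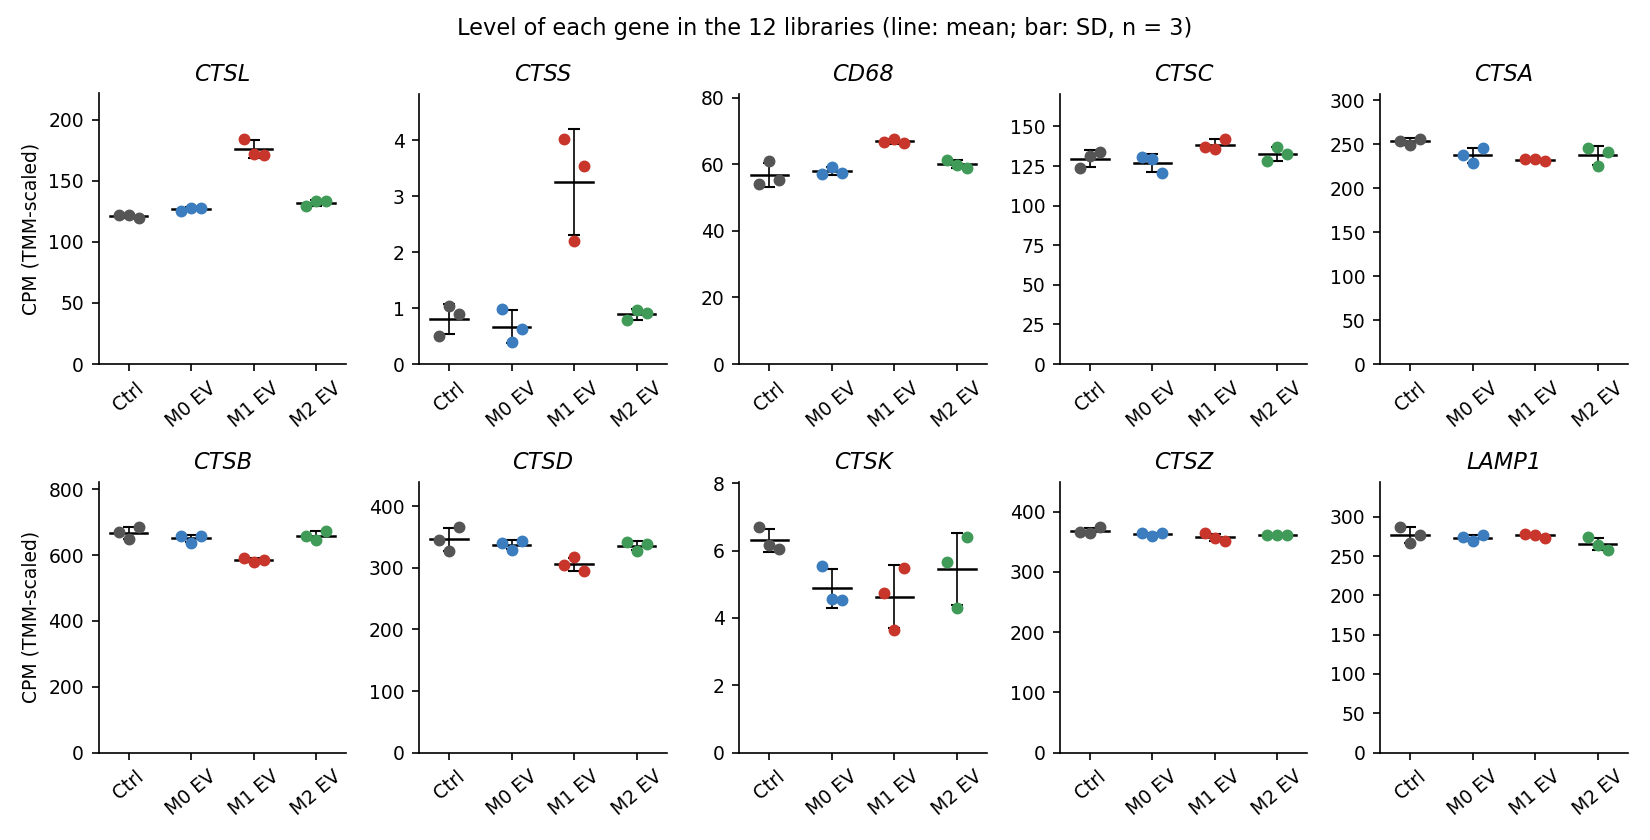
Level of each of the 10 genes in every library, in TMM-scaled CPM (y axis from 0, a separate scale for each gene), by group on the x axis; points are libraries, horizontal lines means and bars SD (n = 3). The 3 M1 EV libraries lie above all others for CTSL, CTSS and CD68 and below all others for CTSB and CTSD, while the groups of LAMP1 overlap.

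CTSL, a broad lysosomal endopeptidase that also cleaves matrix proteins when secreted, showed the rise with the smallest adjusted p (chromosome 9, 87726119 to 87731469, GRCh38.p14). Its levels were 122.1, 121.5 and 119.2 CPM in the Ctrl libraries, 125.5, 127.4 and 127.7 with M0 EV, 184.4, 172.2 and 170.6 with M1 EV and 129.2, 133.1 and 133.3 with M2 EV. No 2 groups overlapped, and M1 EV stood well above the other 3. The share of all tested genes with all groups apart was not counted. M1 EV was 1.45-fold above Ctrl (log2 fold change 0.54 ± 0.038, SE, adjusted p = 2.43e-14). It was also above M0 EV by 0.47 (adjusted p = 9.01e-13) and above M2 EV by 0.41 (adjusted p = 1.86e-11) on the log2 scale. The pseudogenes CTSL3P, CTSLP2 and CTSLP8, which resemble the gene, together had 2 counts over the 12 libraries. The pseudogenes CTSLP1, CTSLP3, CTSLP4 and CTSLP6 were not among the counted genes. Of all tested genes, 5.63% had a larger change in either direction in M1 EV against Ctrl.

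CTSS, a cysteine cathepsin that stays active near neutral pH and processes the class II invariant chain in antigen-presenting cells, had the largest fold but few counts (chromosome 1, 150730188 to 150765778). The rounded counts were 5, 10 and 10 in Ctrl, 12, 4 and 7 with M0 EV, 39, 24 and 36 with M1 EV and 8, 14 and 12 with M2 EV. Each M1 EV library stood above each other library. Summed over 3 libraries these were 25 counts in Ctrl (95% exact Poisson interval 16.2 to 36.9, counting error only), 23 in M0 EV (14.6 to 34.5), 99 in M1 EV (80.5 to 121) and 34 in M2 EV (23.5 to 47.5). In CPM the level went from 0.805 ± 0.273 to 3.25 ± 0.95 (log2 fold change 1.98 ± 0.28, adjusted p = 7.23e-07), a 3.94-fold difference with a 95% interval of 2.64 to 5.87. Against M0 EV and M2 EV the log2 fold changes were 2.21 (adjusted p = 1.2e-07) and 1.82 (adjusted p = 8.58e-07). CTSS reached the filter's 0.941 CPM in all 3 M1 EV libraries but in 1 library of each other group. The filter asked for 3 libraries, so CTSS was near its limit outside M1 EV, and with only Ctrl and M0 EV or Ctrl and M2 EV in the fit it was not tested.

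CD68, a heavily glycosylated lysosomal protein of the LAMP family used as a macrophage marker, rose by 18.0% (chromosome 17, 7579638 to 7582111). It stood at 54.1, 60.9 and 55.2 CPM in Ctrl, 57.1, 59.2 and 57.2 with M0 EV, 66.6, 67.7 and 66.3 with M1 EV and 61.2, 59.6 and 58.9 with M2 EV. The M1 EV libraries lay above the other 9, whose groups overlapped. The log2 fold change was 0.24 ± 0.050 against Ctrl (adjusted p = 0.000244), 0.21 ± 0.049 against M0 EV (adjusted p = 0.00105) and 0.16 ± 0.047 against M2 EV (adjusted p = 0.0107). With DESeq2 the comparison with M2 EV was not called (adjusted p = 0.0571). MPDU1-AS1, a noncoding gene that overlaps CD68 in position, had a mean of 7.25 CPM and a log2 fold change of 0.063 ± 0.12 (adjusted p = 0.776) in M1 EV against Ctrl. The libraries were directional, but whether strand entered the counting is not stated by any source used.

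Since CD68 and CTSS are abundant in macrophages, the source of the vesicles, 28 other macrophage markers were examined. Of these, 11 had no count in any library, among them CD163, TYROBP, CD86, MARCO and the C1q chains. PTPRC, LYZ and SPI1 had 2 counts each over the 12 libraries. CSF1R, ITGB2, FCGR2A, MRC1, CD14 and CYBB had 54, 32, 25, 24, 19 and 19. In Ctrl and M1 EV, CSF1R had 10 and 16 counts and MRC1 had 5 and 10. ITGB2 had 10 and 6, FCGR2A 8 and 5, CD14 7 and 3 and CYBB 5 and 5. The summed level of the 28 was 3.50 to 4.11 CPM in Ctrl, 3.48 to 4.40 with M0 EV, 2.94 to 4.13 with M1 EV and 2.67 to 4.101 with M2 EV, so the groups overlapped. CORO1A, with 282 counts, made up the largest part of this sum. As the 1 marker with enough counts to be tested, it stood at -0.14 ± 0.26 in M1 EV against Ctrl (adjusted p = 0.741). Whether macrophage RNA reached the libraries was not tested.

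CTSB, an endopeptidase with an added carboxydipeptidase activity, and CTSD, the main aspartic protease of the lysosome, fell. CTSB stood at 669.0, 647.5 and 685.0 CPM in Ctrl, 656.6, 637.4 and 657.2 with M0 EV, 591.2, 578.5 and 585.8 with M1 EV and 658.3, 645.7 and 673.7 with M2 EV. The M1 EV libraries were the lowest 3 of the 12, and the other groups overlapped. CTSB fell by 12.3% against Ctrl (log2 fold change -0.19 ± 0.030, adjusted p = 5.19e-06), and was lower by similar values against M0 EV (-0.15, adjusted p = 0.000158) and M2 EV (-0.17, adjusted p = 2.9e-05). CTSD stood at 344.8, 328.0 and 366.5 CPM in Ctrl, 340.4, 329.4 and 343.4 with M0 EV, 304.4, 317.4 and 295.7 with M1 EV and 342.3, 327.5 and 338.7 with M2 EV. Its M1 EV libraries were again the lowest 3. CTSD fell by 11.8% against Ctrl (log2 fold change -0.18 ± 0.037, adjusted p = 0.000205), and was lower than in M0 EV (-0.14, adjusted p = 0.00309) and M2 EV (-0.14, adjusted p = 0.00503).

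CTSA, also called protective protein because it stabilises lysosomal beta-galactosidase and neuraminidase, differed from Ctrl in M1 EV but not detectably from the other vesicle groups. It stood at 254.0, 249.0 and 256.4 CPM in Ctrl, 237.7, 228.4 and 245.5 with M0 EV, 232.9, 233.3 and 230.8 with M1 EV and 245.7, 225.3 and 241.2 with M2 EV. All 9 vesicle-treated libraries were below the 3 Ctrl libraries, and the 3 vesicle groups overlapped. The share of all tested genes with this joint pattern was not counted. Groups apart from Ctrl made up 39.6% of all tested genes with M1 EV, 10.2% with M0 EV and 11.7% with M2 EV. The log2 fold change against Ctrl was -0.12 ± 0.037 for M1 EV (adjusted p = 0.00891), -0.093 ± 0.036 for M0 EV (adjusted p = 0.787) and -0.095 ± 0.036 for M2 EV (adjusted p = 0.63), and these comparisons share the Ctrl libraries. Between M1 EV and M0 EV it was -0.030 (95% interval -0.10 to 0.044, adjusted p = 0.605), and between M1 EV and M2 EV -0.029 (-0.10 to 0.044, adjusted p = 0.617). PLTP, which overlaps CTSA in position, stood at 0.036 ± 0.043 in M1 EV against Ctrl (adjusted p = 0.585).

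CTSK, the collagen-cleaving cathepsin best known from osteoclasts, lies next to CTSS on chromosome 1 (150796208 to 150808260), 30429 bases away. Its counts were 67, 60 and 68 in Ctrl, 68, 46 and 51 with M0 EV, 46, 40 and 56 with M1 EV and 58, 62 and 84 with M2 EV. In CPM the Ctrl libraries (6.04 to 6.70) lay above those of M1 EV (3.65 to 5.49) and M0 EV (4.52 to 5.54) and overlapped those of M2 EV (4.30 to 6.40). The log2 fold change in M1 EV against Ctrl was -0.45 ± 0.16 (adjusted p = 0.0315). DESeq2 did not call it (adjusted p = 0.123). Leaving out 1 library also ended the call, for replicate 1 or 2 of Ctrl (adjusted p = 0.106 and 0.0553) and for replicate 1 or 2 of M1 EV (0.0513 and 0.231). Without the last library the log2 fold change was -0.29. M1 EV did not differ detectably from M0 EV (-0.091, 95% interval -0.43 to 0.25) or M2 EV (-0.23, -0.55 to 0.092).

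CTSC, the dipeptidyl peptidase that activates granule serine proteases, was called in 1 of the 3 comparisons of M1 EV. It stood at 123.5, 131.3 and 133.8 CPM in Ctrl, 130.9, 129.2 and 120.4 with M0 EV, 137.3, 135.9 and 142.4 with M1 EV and 128.0, 137.0 and 132.4 with M2 EV. M1 EV lay above Ctrl and M0 EV in every library and overlapped M2 EV. The log2 fold change was 0.096 ± 0.042 against Ctrl (adjusted p = 0.086), 0.13 ± 0.042 against M0 EV (adjusted p = 0.0206) and 0.062 ± 0.041 against M2 EV (adjusted p = 0.298). The call against M0 EV was not made with DESeq2 (adjusted p = 0.0501), with the longest transcript (0.187) and without M0 EV replicate 3 (0.152) or M1 EV replicate 3 (0.0794).

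CTSZ, a carboxypeptidase, and LAMP1, a major glycoprotein of the lysosomal membrane, were not called in any comparison. CTSZ ranged from 350.9 to 363.9 CPM with M1 EV and from 364.1 to 374.2 in Ctrl (log2 fold change -0.045, 95% interval -0.11 to 0.018, adjusted p = 0.313). With M0 EV it ranged from 360.2 to 363.9 CPM and with M2 EV from 360.3 to 360.9. All 9 vesicle-treated libraries thus lay below the 3 Ctrl libraries, as for CTSA, but by a small margin (363.9 against 364.1 CPM). These comparisons share the Ctrl libraries, and the share of all genes with this pattern was not counted. LAMP1 ranged from 273.7 to 278.3 CPM with M1 EV and from 266.5 to 287.1 in Ctrl. The M1 EV range lay within that of Ctrl. Its log2 fold change was -0.0019 (95% interval -0.072 to 0.068, adjusted p = 0.978). LAMP1, whose promoter window held the 6 CACGTG copies, had the smallest of the 10 changes, while CTSA and CTSD, with 2 and 1 copies, fell. Whether these genes differ in their response was not tested.

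**Figure D2:**
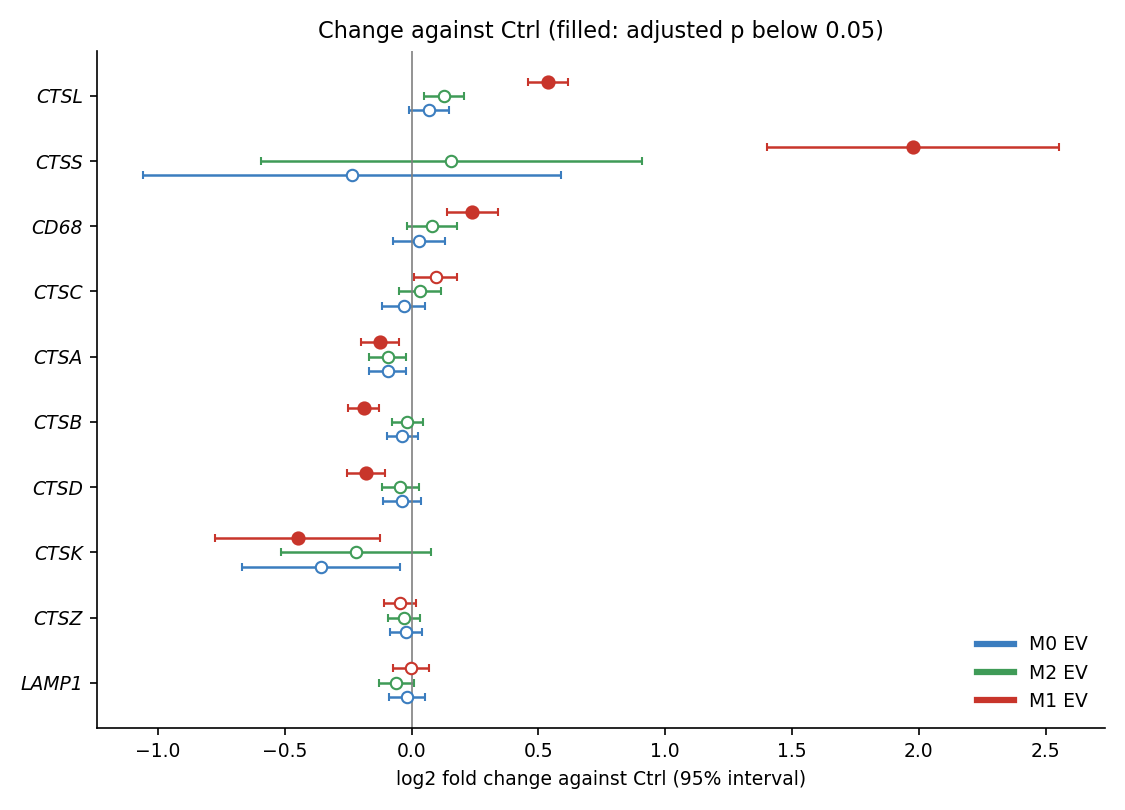
Log2 fold change against Ctrl (x axis) of the 10 genes (y axis) for M0 EV, M2 EV and M1 EV, with 95% intervals; filled points have an adjusted p below 0.05. The filled points belong to M1 EV, from -0.45 for CTSK to 1.98 for CTSS, and the 3 series share the Ctrl libraries.

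With vesicles of M0 or M2 macrophages no gene of the 10 was called against Ctrl, beside 0.0152% and 0.0457% of all tested genes. In edgeR's test 2 of the 10 had an unadjusted p below 0.05 in each comparison, CTSA and CTSK with M0 EV (beside 5.07% of all tested genes) and CTSA and CTSL with M2 EV (6.21%), and DESeq2 and limma-voom called none of the 10 either. CTSL stood above Ctrl in every library, by 0.069 ± 0.040 with M0 EV (adjusted p = 0.999) and by 0.13 ± 0.039 with M2 EV (adjusted p = 0.374) on the log2 scale. Groups that do not overlap with Ctrl were found for 4 of the 10 with M0 EV (CTSA, CTSK and CTSZ lower, CTSL higher), beside 10.2% of all tested genes. With M2 EV they were found for 3 (CTSA and CTSZ lower, CTSL higher), beside 11.7%. For CTSS the 95% intervals were wide (-1.06 to 0.59 with M0 EV and -0.60 to 0.91 with M2 EV), so smaller changes were not detectable at this depth. M2 EV against M0 EV gave no call among the 10, none at an unadjusted p below 0.05, and none with DESeq2 or limma-voom (0% of all tested genes were called, and 3.41% had an unadjusted p below 0.05). Of the 10, CTSL had groups that do not overlap, beside 8.99% of all tested genes.

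Directly compared, M1 EV differed from M0 EV in 6 of the 10 genes (4 higher, 2 lower), beside 25.3% of all tested genes (12.5% higher, 12.8% lower). From M2 EV it differed in 5 (3 higher, 2 lower), beside 24.6% (12.6% higher, 12% lower). Groups that do not overlap made up 36.6% of all tested genes against M0 EV and 36.4% against M2 EV. CTSS, CTSL and CD68 were higher and CTSB and CTSD lower in both, and CTSC was higher against M0 EV. These tests share the M1 EV libraries. CTSA and CTSK, which fell against Ctrl, did not pass in either.

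The cathepsins were also described as a pool. The summed level of the 8 cathepsins was 1030 ± 24 CPM per kb in Ctrl (SD, n = 3), 1008 ± 13 with M0 EV, 994.5 ± 11.9 with M1 EV and 1017 ± 13 with M2 EV. The M1 EV libraries (984.2 to 1007) lay just below those of Ctrl (1008 to 1055) and overlapped both other groups. Within the pool CTSL made up 8.18% ± 0.28 in Ctrl, 8.77% ± 0.16 with M0 EV, 12.3% ± 0.38 with M1 EV and 9.03% ± 0.21 with M2 EV. CTSB went from 32.2% ± 0.24 to 29.3% ± 0.31 and CTSD from 15.8% ± 0.52 to 14.5% ± 0.51 between Ctrl and M1 EV. CTSS, despite its fold, was 0.0190% in Ctrl and 0.0795% with M1 EV. Shares add up to a fixed total, so a rise of 1 gene lowers the others.

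**Figure D3:**
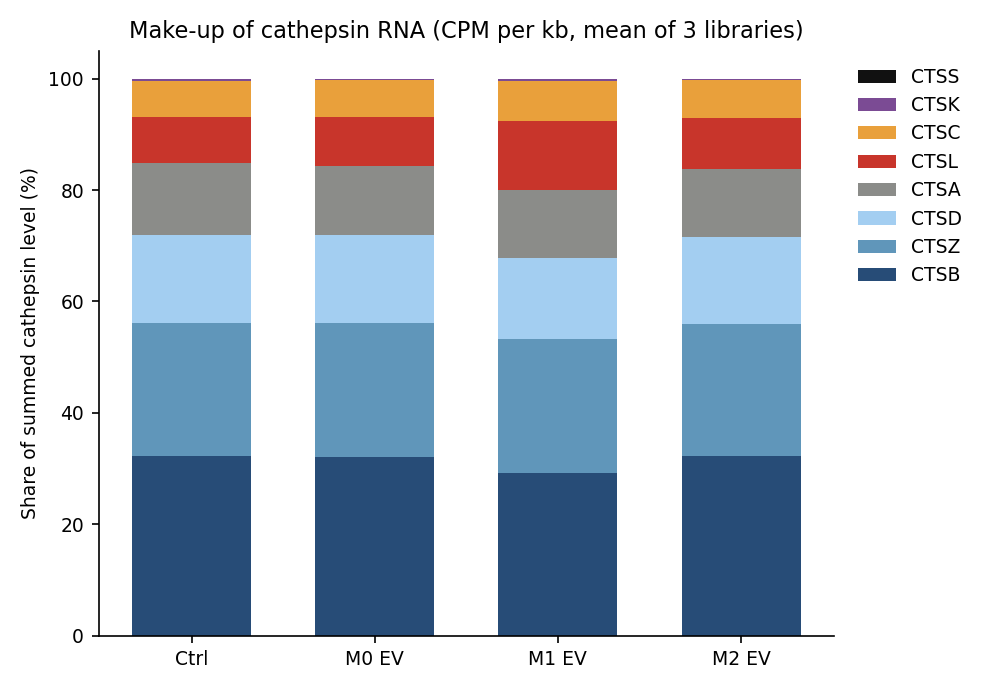
Share of each cathepsin (y axis, percent) in the summed cathepsin level in CPM per kb, mean of 3 libraries, by group (x axis). The CTSL segment is 12.3% with M1 EV and 8.18% in Ctrl, while CTSK and CTSS are too small to read.

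With earlier results of these data known, 8 lists of other lysosomal genes were chosen, with 136 genes, of which 104 were tested. With M1 EV, 13 were higher than in Ctrl and 25 lower, 36.5% of those tested, beside 28.1% of all tested genes (14.3% higher, 13.7% lower). The list counts below are read against these shares. Of 36 other lysosomal hydrolases, related enzymes and activators 13 fell and 0 rose, and 6 had a positive log2 fold change, with a median log2 fold change of -0.13 beside 0.00077 for all tested genes. NPC2, the soluble cholesterol carrier of the lysosome, had 127.4 CPM in Ctrl and 91.1 with M1 EV (log2 fold change -0.49 ± 0.043, adjusted p = 9.62e-12). HGSNAT, a membrane-spanning acetyltransferase of heparan sulfate breakdown, and RNASET2, an acid ribonuclease, fell by 0.52 and 0.49, and FUCA1, a fucosidase, fell by 0.75 on the log2 scale. PSAP, the precursor of the saposins that activate sphingolipid hydrolases, went from 743.3 to 636.4 CPM (-0.22 ± 0.029, adjusted p = 7.72e-08).

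Of 18 tested membrane proteins other than LAMP1, 4 rose and 5 fell (median log2 fold change -0.011). NPC1, the membrane partner of NPC2 in cholesterol export, went from 86.9 to 116.2 CPM (0.42 ± 0.044, adjusted p = 6.14e-10), so this pair moved in opposite directions. OSTM1, a subunit of the lysosomal chloride transporter, rose by 0.26, although its groups overlapped. The tetraspanin CD63, found in lysosomes and on secreted vesicles, fell by 0.37 (adjusted p = 4.24e-10), and the sialic acid exporter SLC17A5 by 0.27. LAMP2, the paralog of LAMP1, stood at -0.085 ± 0.039 (adjusted p = 0.105).

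Among proteases and inhibitors related to the cathepsins, LGMN (legumain, which processes several cathepsin precursors) rose by 0.21 (adjusted p = 0.00459) and CTSF fell by 0.31 (adjusted p = 0.0035) of 4 tested. CTSH stood at -0.28 ± 0.26 (adjusted p = 0.541). Of 2 tested cystatins, CST3 (cystatin C, the main secreted inhibitor of cysteine cathepsins) went from 115.9 to 89.3 CPM in M1 EV (-0.38 ± 0.043, adjusted p = 4.16e-09). CST3 was also lower with M1 EV than with M0 EV (-0.37) or M2 EV (-0.33). CSTB, the cytosolic inhibitor, stood at -0.11 ± 0.043 (adjusted p = 0.0574).

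Of 17 subunits of the V-ATPase, the proton pump that acidifies lysosomes, 4 rose and 3 fell. ATP6V0B, ATP6V0A2 and ATP6V1C1 rose by 0.24, 0.18 and 0.17 and ATP6V0E2 fell by 0.46 on the log2 scale. Of 12 sorting genes, 2 rose and 0 fell, and both were mannose 6-phosphate receptors, M6PR (0.11, adjusted p = 0.0224) and IGF2R (0.12, adjusted p = 0.0448). IGF2R stood at 234.1 CPM in Ctrl, 258.4 with M0 EV (log2 fold change 0.14, adjusted p = 0.534), 253.4 with M1 EV and 245.4 with M2 EV. M6PR was also higher with M1 EV than with M0 EV (0.15, adjusted p = 0.00386) and M2 EV (0.11, adjusted p = 0.0306). In the list of the TFEB family and its control, 1 of 12 rose and 2 fell. TFEB stood at -0.34 ± 0.18 (adjusted p = 0.163) and TFE3 at 0.033 ± 0.043 (adjusted p = 0.621), and MITF, with 104 counts over the 12 libraries, was not tested. RRAGA and FNIP1, which act in amino acid signalling to mTORC1, fell by 0.21 and 0.23, and the kinase MTOR rose by 0.10 (adjusted p = 0.0499).

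Of 12 genes of class II antigen processing, the pathway in which CTSS is known to act, 3 passed the filter on low counts and 7 were without any count. IFI30, a lysosomal thiol reductase, rose by 0.38 (adjusted p = 0.012). CD74, the invariant chain that CTSS cleaves, stood at 0.27 ± 0.11 against Ctrl (adjusted p = 0.0554) and was higher with M1 EV than with M0 EV (0.37, adjusted p = 0.00787) and M2 EV (0.32, adjusted p = 0.0186). CIITA, the class II transactivator, stood at -0.20 ± 0.11 (adjusted p = 0.188). Against Ctrl none of the 104 tested genes was called with M0 EV or M2 EV in edgeR or limma-voom. At an unadjusted p below 0.05 in edgeR's test there were 7 and 10 of the 104, beside 5.07% and 6.21% of all tested genes.

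**Figure D4:**
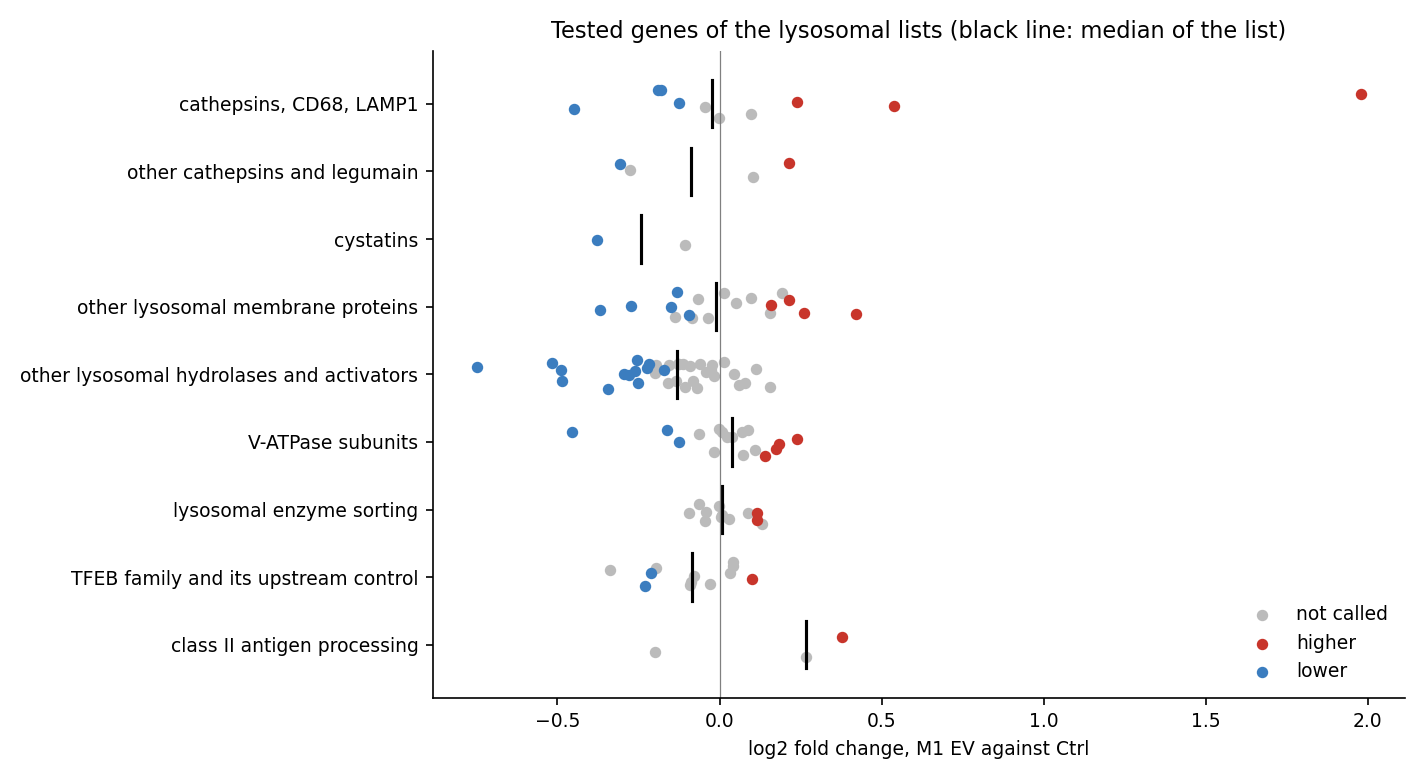
Log2 fold change in M1 EV against Ctrl (x axis) of the tested genes of each lysosomal list (y axis), with a black line at each list's median; red points rose, blue points fell and grey points were not called. The list of other lysosomal hydrolases and activators shows 13 blue and 0 red points, and CTSS at 1.98 is the rightmost.

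Of the genes beside the members, some were higher and some lower in M1 EV against Ctrl, where 28.1% of all tested genes were called. Around CTSS and CTSK, 3 of 8 neighbours rose and 1 fell, with HORMAD1 at 0.56, the survival gene MCL1 at 0.36, CERS2 at 0.11 and GOLPH3L at -0.25. Between CTSS and CTSK themselves the signs were opposite. Around CD68, 2 of 9 tested neighbours rose and 2 fell. EIF4A1, a translation initiation helicase that ends 631 bases before CD68, went from 1252 to 1390 CPM (0.15 ± 0.027, adjusted p = 3.82e-05). SENP3 rose by 0.18, and TNFSF12 and SOX15 fell by 0.30 and 0.67.

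Genes with the most similar pattern over the 12 libraries were listed for CTSL and CTSS, the called members with a log2 change of at least 0.5 in M1 EV against Ctrl, by the root mean square difference of centred log2 CPM among 12758 genes of at least 1 CPM. Nearest to CTSL were ODC1, the ornithine decarboxylase of polyamine synthesis (difference 0.028), LHFPL2 (0.049) and AEBP1 (0.049). ODC1 stood at 175.1 CPM in Ctrl, 181.5 with M0 EV, 246.2 with M1 EV and 184.8 with M2 EV. Nearest to CTSS were IL6, an inflammatory cytokine (0.28), SERPINB2 (0.34) and SOD2, the mitochondrial superoxide dismutase (0.35). IL6 stood at 3.61 CPM in Ctrl, 3.62 with M0 EV, 15.0 with M1 EV and 4.11 with M2 EV. Likeness here describes these libraries only.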

How the data were processed

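RNA of 12 libraries was measured as directional poly(A) RNA sequencing. Per the submitters' processing notes STAR 2.6.1b, HOMER 4.10 and hg38 were used, with no role stated. The deposited values are expected counts, unnormalized, for 70507 RefSeq transcripts, all multiples of 0.5, per the file headers and values. One column name lacks the digit of MV3 and was taken as M0 EV replicate 1.

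Transcripts were named with RefSeq GRCh38.p14 (69830) and GENCODE release 29 (343), and 334 without a name (0.0584% to 0.0623% of counts) were left out. For each gene the transcript with the largest summed count stood for the gene, and its counts were rounded. Counts were filtered with edgeR's default (13116 of 28100 genes), TMM-scaled (0.993 to 1.007) and fitted in edgeR 4.0.16 (R 4.3.3) with 1 term per group over all libraries, with 8 residual degrees of freedom. Lengths per kilobase are those of the matching GENCODE transcripts. In simulated data for M1 EV against Ctrl (13043 genes) the test recovered 70% of 50 genes changed 1.25-fold and 92% of 50 changed 2-fold. Of its 174 calls 5 were false. A far smaller share of genes was changed there than the 28.1% called in the data. The rates therefore describe the simulation and not the sensitivity in the data.

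The members and lists were chosen with earlier results of these data known. Named genes were all members, 16 fixed genes and, from each list, up to 4 genes called in M1 EV against Ctrl with at least 1 CPM and the largest change. Genes of similar pattern were taken for members called there with an absolute log2 fold change of at least 0.5. Alternatives were DESeq2 1.42.0, limma-voom (limma 3.58.1), RLE and upper-quartile scaling, no filter, a mean of at least 1 CPM, rounding down, the longest transcript, only the 2 groups compared, the replicate number as a block, and leaving out each library.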

Additional observations from a re-analysis of the deposited data

How the results depend on the processing

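In M1 EV against Ctrl the count of called members stayed at 6 or 7 under every alternative run, against M0 EV at 5 or 6 and against M2 EV at 4 or 5, and the other 3 comparisons stayed at 0. CTSA, CTSB, CTSD, CTSL, CTSS and CD68 kept their direction and call in M1 EV against Ctrl under all 16 alternatives run for each. Calls lost were those of CTSK against Ctrl, CTSC against M0 EV and CD68 against M2 EV, as given above, and the cause was not tested. The labels number the replicates without saying that a number is shared. Deviations of same-numbered libraries had correlations of -0.0479 to 0.0896 over all tested genes. Genes with few counts weigh as much as others there, so the correlations do not show whether a number was shared. The replicate block left the members called at 7, 6 and 5 in the 3 comparisons of M1 EV and at 0 in the others. Over all genes it raised the calls in every comparison, from 3682 to 3757 in M1 EV against Ctrl. Fitted on the 2 groups alone, CTSS was not tested in M0 EV or M2 EV against Ctrl, because it did not pass the filter.

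Over all genes, M0 EV against Ctrl gave 2 calls, 53 with no filter, 20 with the replicate block, 0 with DESeq2, 4 with upper-quartile scaling and 0 to 86 without a library (86 without M0 EV replicate 1). M2 EV against Ctrl gave 6 calls, 31 with no filter, 62 on the 2 groups alone, 2 with DESeq2 and 0 to 26 without a library (26 without Ctrl replicate 2). M1 EV against Ctrl gave 3682 calls and 2567 with DESeq2, against M0 EV 3323 and 2224, and against M2 EV 3227 and 2105. M2 EV against M0 EV gave 0 calls, 12 with no filter, 1 with the replicate block and 0 to 36 without a library (36 without M0 EV replicate 1). The cause was not tested.

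Signs changed only for differences that were not called. CTSA in M2 EV against M0 EV (-0.0013) became 0.00037 with RLE, 0.0066 with upper-quartile scaling, 0.0031 with no filter, 5.6e-05 with at least 1 CPM, 0.0018 with the longest transcript, 0.0019 on the 2 groups alone and 0.00063 with DESeq2. With upper-quartile scaling CTSD became 3.3e-05 and CTSZ 1.1e-05 there. Leaving out a library in turn gave -0.0308 to 0.0261 for LAMP1 in M1 EV against Ctrl, -0.00579 to 0.075 for CD68 in M0 EV against Ctrl, -0.0494 to 0.00552 for LAMP1 in M0 EV against Ctrl, -0.0823 to 0.34 for CTSS in M2 EV against Ctrl, -0.0806 to 0.00206 for CTSD in M0 EV against Ctrl, -0.0432 to 0.000504 for CTSB in M2 EV against Ctrl, -0.23 to 0.0683 for CTSK in M1 EV against M0 EV, -0.0266 to 0.0367 for CTSA in M2 EV against M0 EV, -0.025 to 0.0114 for CTSD in M2 EV against M0 EV, -0.0671 to 0.00276 for CTSC in M0 EV against Ctrl, -0.00788 to 0.31 for CTSK in M2 EV against M0 EV.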
